A study of Rattus norvegicus with 29 samples.

Results

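The muscle miRNAs miR-1, miR-133, miR-206, miR-208 and miR-499 were followed in rat plasma by small RNA sequencing. Members were the rows of the count table named by the stems miR-1, miR-133a, miR-206, miR-208a and miR-499 with either arm (3p or 5p), which gave 10 of 754 rows. All 10 members were among the 751 rows that passed the filter on low counts. The rule reads row names and no measured level. 1 row joins miR-133a-3p with miR-133b-3p, the products of separate loci, under 1 shared count, so that the pair cannot be told apart here. It is called miR-133a-3p below.

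Muscle miRNAs, often called myomiRs, are short RNAs that striated muscle holds in large amounts and that enter the blood when muscle fibres are strained or damaged. miR-206 is made in skeletal muscle and its satellite cells, where it promotes myogenic differentiation, and it is nearly absent from heart. miR-208a is cut from an intron of the cardiac myosin gene Myh6, and miR-499 from an intron of Myh7b, which is active in heart and in slow skeletal fibres. miR-1 and miR-133a are made from shared precursor transcripts in both kinds of muscle, with miR-1 favouring differentiation and miR-133a favouring proliferation of myoblasts.

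The mature sequences that set skeletal and cardiac members apart are shown 5′ to 3′, with those of both miRNAs in the joined row. The seed (bases 2 to 8, which pair with target mRNAs) is in capitals. Sequences and positions are those of RefSeq (GRCr8), in which 9 of the 10 rows had an entry for their own name or, for the joined row, for both names. miR-206-5p is named only.
miR-1-3p: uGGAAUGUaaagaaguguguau
miR-206-3p: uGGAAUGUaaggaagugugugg
miR-133a-3p: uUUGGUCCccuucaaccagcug
miR-133b-3p: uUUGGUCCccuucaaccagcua
miR-208a-3p: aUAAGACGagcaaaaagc
miR-499-5p: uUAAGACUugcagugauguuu
Counting from the 5′ end and giving the miR-1-3p base first, miR-206-3p differs from miR-1-3p by A11G, A21G and U22G, all outside the seed, so that both carry 1 seed. miR-1b, a further row of the table that is not a member, has that seed too. miR-133b-3p differs from miR-133a-3p by G22A alone. miR-208a-3p shares its seed with miR-208b-3p, and no other miRNA of the count table has the seed of miR-499-5p.

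The miR-1-3p sequence lies at chr18:2160339-2160360 on the minus strand and miR-133a-3p at chr18:2157886-2157907 on the same strand, both within the span of Mib1. miR-206-3p (chr9:30590747-30590768) and miR-133b-3p (chr9:30594629-30594650) lie together on the plus strand within LOC120094648. miR-208a-3p lies at chr15:32395568-32395585 on the minus strand within Myh6. miR-499-5p lies at chr3:164570616-164570636 on the plus strand within Myh7b. These positions come from the sequence table and not from the count table, which the submitters made on Rnor_6.0.

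Plasma was drawn from the tail vein of adult male Sprague-Dawley rats, without a transgene, 48 h after lateral fluid-percussion traumatic brain injury (TBI) or sham operation, in 29 rats at 3 sites. UEF gave 12 rats (4 sham, 4 TBI−, 4 TBI+), Monash 8 (3, 3, 2) and UCLA 9 (3, 3, 3). TBI− and TBI+ are injured rats without and with epilepsy at video-EEG in the seventh month, and sham rats were anesthetized and operated on but received no impact. Each library was 1 rat, and each site did its own surgery and bleeding. Per the study's methods, the sites obtained their rats from separate sources and fed separate diets. Analgesia was buprenorphine at UEF and Monash and flunixin meglumine at UCLA, where the rats were also given chow medicated with trimethoprim and sulfamethoxazole. Site, source, diet, drugs, operator and handling cannot be told apart.

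Depth was 1162307 to 5223469 miRNA counts per rat (median 2713557). Values below are counts scaled to a common library total (CPM) after adjustment by the trimmed mean of M values (TMM), and thus relative to the other miRNAs of the same plasma. In bulk plasma, release from more fibres, more release per fibre and slower clearance cannot be told apart. One sham rat of UEF (rat 3) stood apart, with 55.1% of its counts from the liver miRNA miR-122-5p and a scaling factor of 0.333. Its miR-206-3p level was 348 CPM, inside the range of the other UEF rats, and leaving it out lost no call of a muscle miRNA.

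The members fell into an abundant and a scarce set. Over 29 rats the mean was 2841 CPM for miR-133a-3p (the row of rno-miR-133a-3p), 2763 CPM for miR-206-3p (rno-miR-206-3p) and 1061 CPM for miR-1-3p (rno-miR-1-3p), which were ranks 44, 46 and 72 of the 751 miRNAs tested. The cardiac members were far lower. miR-208a-3p had a mean of 25.6 CPM and miR-499-5p (rno-miR-499-5p) of 14.4 CPM, ranks 445 and 601. The remaining arms had means of 24.3 CPM (miR-133a-5p), 8.0 CPM (rno-miR-1-5p), 7.58 CPM (rno-miR-206-5p), 6.93 CPM (miR-499-3p) and 5.06 CPM (rno-miR-208a-5p). Capture of small RNAs into libraries differs between sequences, so the order of these levels is that of the counts and may not be that of the molecules, and ratios of 2 miRNAs are compared only between rats.

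All members together held from 0.0329% to 4.01% of a rat's miRNA counts (median 0.112%). The 3 abundant rows made up 72.5% to 99.8% of those member counts (median 94.2%). The 4 cardiac rows made up 0.0362% to 18.6% (median 2.84%).

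Counting error was small for the abundant rows and not for the scarce ones. The lowest count in any rat was 75 for miR-1-3p, 259 for miR-133a-3p and 344 for miR-206-3p. miR-208a-3p had 11 to 273 counts and miR-499-5p had at least 5. A count of 0 occurred in 9 rats for miR-499-3p, in 8 for miR-208a-5p, in 6 for miR-1-5p and in 1 for miR-206-5p, and the other 6 rows were counted in every rat.

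**Figure D1:**
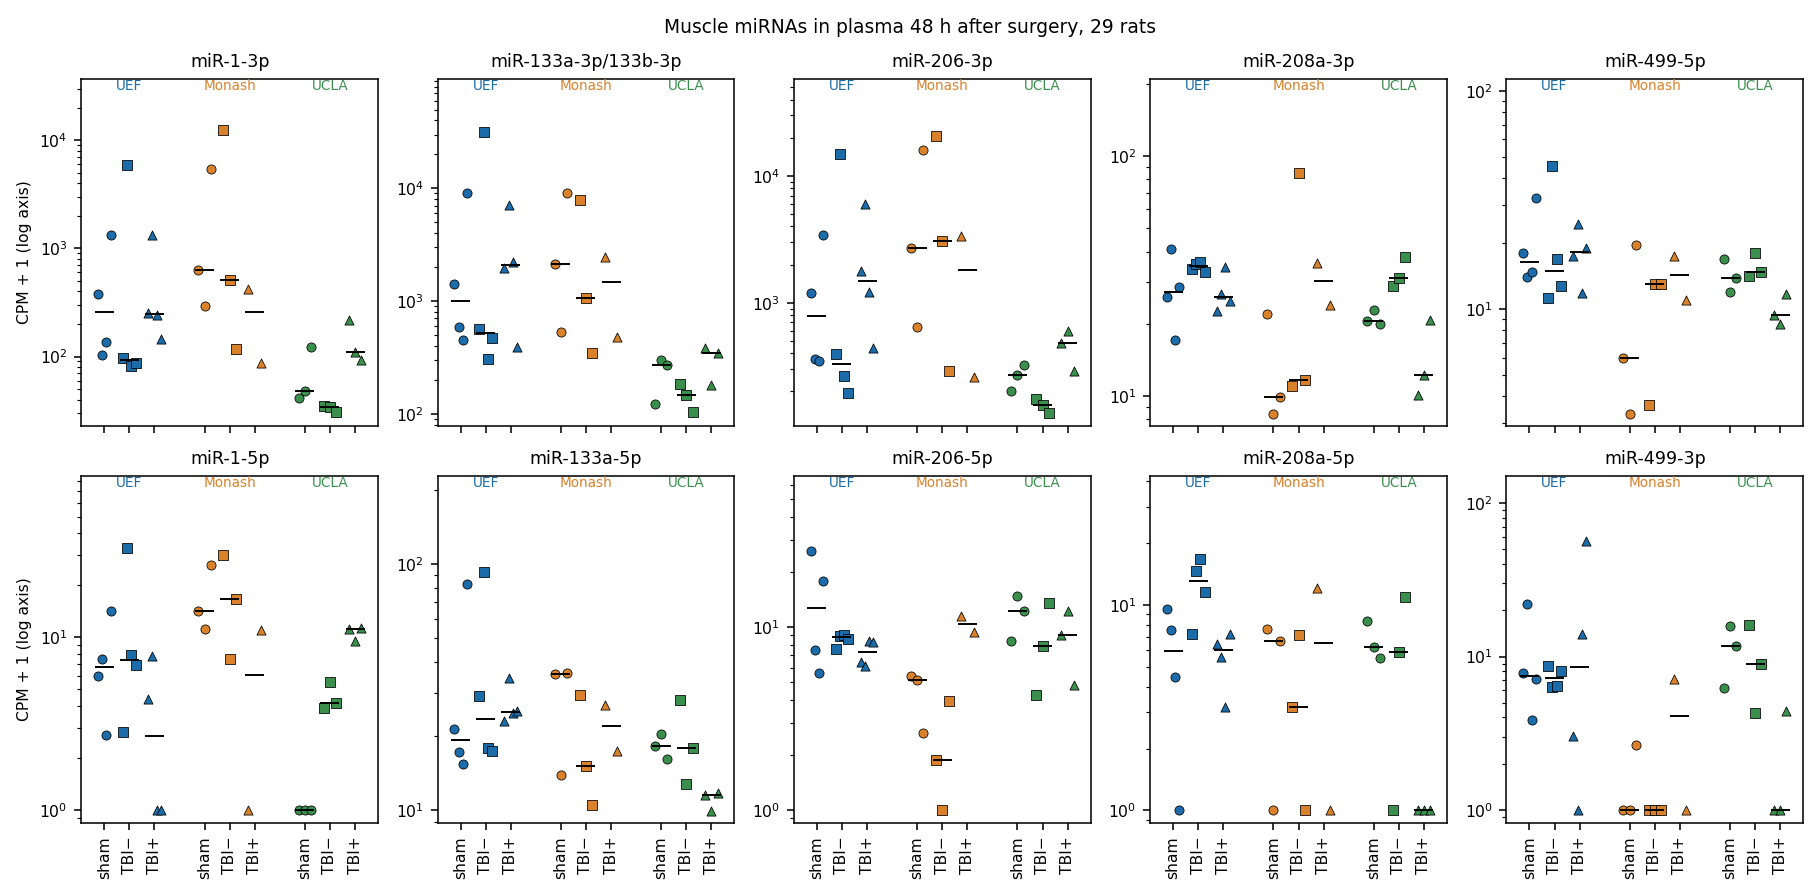
Level of each of the 10 muscle miRNA rows in each rat, as CPM + 1 on a log axis, by site and condition. Each point is 1 rat and each bar the group median. For miR-1-3p, miR-133a-3p and miR-206-3p the UCLA rats sit low and close together, whereas single UEF and Monash rats reach 5875 to 31910 CPM.

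The skeletal miR-206-3p was called between sites and not between injury groups, as described below. At UEF the sham rats had 1198, 361, 348 and 3403 CPM, the TBI− rats 394, 14920, 265 and 192 CPM, and the TBI+ rats 1781, 6060, 1209 and 439 CPM. At Monash the sham rats had 2693, 643 and 16030 CPM, the TBI− rats 20600, 3065 and 291 CPM, and the TBI+ rats 3353 and 257 CPM. At UCLA the sham rats had 201, 266 and 321 CPM, the TBI− rats 174, 156 and 136 CPM, and the TBI+ rats 480, 594 and 289 CPM. No UCLA rat passed 594 CPM, a level passed by 6 of 12 rats at UEF and 6 of 8 at Monash. High rats occurred in sham and in TBI groups alike.

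The joined row of miR-133a-3p had the largest fold among the members between UEF and UCLA. Its lowest, median and highest levels were 302, 1004 and 31910 CPM at UEF, 343, 1591 and 9063 CPM at Monash, and 102, 183 and 382 CPM at UCLA. 11 of 12 UEF rats and 7 of 8 Monash rats were above the highest UCLA rat.

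miR-1-3p was high in largely the same rats. It ranged from 81.0 CPM through a median of 193 to 5875 CPM at UEF, from 86.3 through 465 to 12480 CPM at Monash, and from 29.5 through 47.1 to 218 CPM at UCLA. 6 of 12 UEF rats and 6 of 8 Monash rats were above the highest UCLA rat, and all 20 were above the UCLA median.

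For the cardiac members UCLA was not the lowest site at the median. miR-208a-3p had a lowest, median and highest level of 16.1, 29.7 and 39.9 CPM at UEF, 7.39, 15.8 and 84.1 CPM at Monash, and 9.11, 19.7 and 37.0 CPM at UCLA. miR-499-5p had 10.3, 16.3 and 44.2 CPM at UEF, 2.31, 11.03 and 18.7 CPM at Monash, and 7.52, 12.9 and 17.1 CPM at UCLA. The 3 sites overlapped for both rows. The highest miR-208a-3p level (84.1 CPM, 273 counts) was that of Monash TBI− rat 2, whose miR-206-3p level of 3065 CPM was near the Monash median of 2879 CPM.

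Sites were compared with edgeR's quasi-likelihood F test in a model of condition and site, with Benjamini-Hochberg adjustment over the 751 miRNAs. UEF against UCLA called 4 of 10 members, all higher at UEF, beside 9.32% of all miRNAs called and 5.19% called as higher. These were miR-133a-3p (log2 fold change 4.19 ± 0.89 (SE), adjusted p = 0.00157), miR-206-3p (3.00 ± 0.84, adjusted p = 0.0208), miR-1-3p (2.98 ± 0.95, adjusted p = 0.0409) and miR-133a-5p (1.10 ± 0.33, adjusted p = 0.0286). The median log2 fold change was 0.87 over the members and 0.07 over all miRNAs. The rows of miR-208a and miR-499 were not called. miR-208a-3p differed by 0.47 (95% interval −0.15 to 1.09, adjusted p = 0.414), and miR-499-5p by 0.63 (−0.02 to 1.27, adjusted p = 0.267).

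The folds of the abundant rows lean on the highest rats. The ratio of the UEF median to the UCLA median was 5.49 for miR-133a-3p, 4.10 for miR-1-3p and 3.07 for miR-206-3p. Without UEF TBI− rat 2 and Monash TBI− rat 1 together, an alternative added after the values were seen, the log2 fold changes were 2.88, 1.96 and 1.94 (adjusted p = 0.00169, 0.0296 and 0.0391), and that of miR-133a-5p was 0.79 (adjusted p = 0.106).

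The UEF to UCLA call of miR-1-3p was lost on leaving out any 1 of 11 rats, with adjusted p from 0.0539 to 0.137, and in the robust fit of edgeR, an alternative added after the values were seen (adjusted p = 0.0695). The rats were UEF sham rat 4, UEF TBI− rat 2, UEF TBI+ rat 2, each of the 3 UCLA sham rats, each of the 3 UCLA TBI− rats, and UCLA TBI+ rats 2 and 3. That of miR-133a-5p was lost without UEF sham rat 4 (adjusted p = 0.0856), UEF TBI− rat 2 (0.0882), UCLA TBI− rat 2 (0.0544), UCLA TBI+ rat 2 (0.0570) or UCLA TBI+ rat 3 (0.0526), and on all rats with miR-28-3p counts as library size (0.0759) or after thinning to the lowest total (0.103). That of miR-206-3p was lost without UEF TBI+ rat 2 alone (adjusted p = 0.0538). The call of miR-133a-3p was kept without each of the 29 rats in turn (adjusted p from 0.000870 to 0.00492).

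Monash against UCLA called 3 of 10 members, all higher at Monash, beside 5.46% of all miRNAs called and 3.06% called as higher. miR-1-3p differed by a log2 fold change of 4.52 ± 1.11 (SE; adjusted p = 0.0130), miR-206-3p by 4.29 ± 0.95 (adjusted p = 0.00650) and miR-133a-3p by 3.60 ± 0.90 (adjusted p = 0.0130). The ratios of medians were 9.87, 10.8 and 8.70 in that order. Without Monash sham rat 3 the adjusted p was 0.0551 for miR-1-3p and 0.0507 for miR-133a-3p, and without Monash TBI− rat 1 it was 0.0505 for miR-1-3p. The call of miR-206-3p was kept without each rat in turn (adjusted p from 0.000350 to 0.0295). miR-208a-3p differed by 0.18 (95% interval −0.51 to 0.86, adjusted p = 0.824) and miR-499-5p by −0.32 (−1.05 to 0.41, adjusted p = 0.645). miR-499-3p differed by −3.25 (−5.45 to −1.05, adjusted p = 0.0770) and was called as lower at Monash without UEF TBI+ rat 2 (adjusted p = 0.0422), Monash TBI+ rat 1 (0.0118), UCLA TBI+ rat 1 (0.0304) or UCLA TBI+ rat 2 (0.0353).

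The site differences were also computed within sham rats and within TBI rats alone. Monash against UCLA was called in sham rats for miR-1-3p (log2 fold change 4.93, adjusted p = 0.0223) and miR-206-3p (4.62, adjusted p = 0.0223), whereas miR-133a-3p differed by 4.08 (adjusted p = 0.0551). In TBI rats the same differences were 4.17, 4.00 and 3.24 (adjusted p = 0.170, 0.0864 and 0.122). UEF against UCLA was called for miR-133a-3p in TBI rats (4.36, adjusted p = 0.0224) and not in sham rats (3.64, adjusted p = 0.0624). For miR-206-3p it was 3.19 in TBI rats (adjusted p = 0.101) and 2.33 in sham rats (adjusted p = 0.183). For miR-1-3p it was 2.94 (adjusted p = 0.218) and 2.80 (adjusted p = 0.133), and for miR-133a-5p 1.19 (adjusted p = 0.0651) and 0.93 (adjusted p = 0.428). None of the 4 rows called between UEF and UCLA on all rats was called in sham rats alone, where 1 other muscle row was called. The direction was the same in both sets for miR-1-3p, miR-133a-3p and miR-206-3p.

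Between UEF and Monash, the sites with the high rats, 1 of 10 members was called, beside 9.99% of all miRNAs called and 4.39% called as higher. This was miR-499-3p, the scarce arm of a cardiac and slow-fibre precursor, with 0, 6.47 and 55.4 CPM (lowest, median, highest) at UEF against 0, 0 and 6.15 CPM at Monash. 6 of 8 Monash rats were at 0 counts and the other 2 had 2 and 10 counts, whereas 1 of 12 UEF rats was at 0. The fitted log2 fold change was 3.72 ± 1.01 (SE; adjusted p = 0.0228), and at such counts its size depends on the prior count. It was not called without UEF TBI+ rat 4 (adjusted p = 0.0618), which held 160 of the counts.

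The abundant rows were not called between UEF and Monash. miR-206-3p differed by −1.29 (95% interval −2.88 to 0.30, adjusted p = 0.298) and miR-1-3p by −1.54 (−3.29 to 0.20, adjusted p = 0.253). Without UEF TBI− rat 2 both passed the threshold as lower at UEF, with log2 fold changes of −2.66 and −3.20 (adjusted p = 0.0265 for each). miR-133a-3p differed by 0.60 (−1.02 to 2.21, adjusted p = 0.692), a direction that turned without that rat (−0.85). miR-208a-3p differed by 0.29 (−0.35 to 0.94, adjusted p = 0.602), miR-499-5p by 0.95 (0.26 to 1.64, adjusted p = 0.0665) and miR-206-5p by 1.20 (0.22 to 2.18, adjusted p = 0.107). miR-499-5p was called without Monash sham rat 3 (adjusted p = 0.0476) or Monash TBI+ rat 1 (0.0342), and miR-206-5p without Monash TBI+ rat 1 (0.0431) or rat 2 (0.0487). On all rats DESeq2 called both as higher at UEF (adjusted p = 0.0348 for miR-499-5p and 0.0404 for miR-206-5p).

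**Figure D2:**
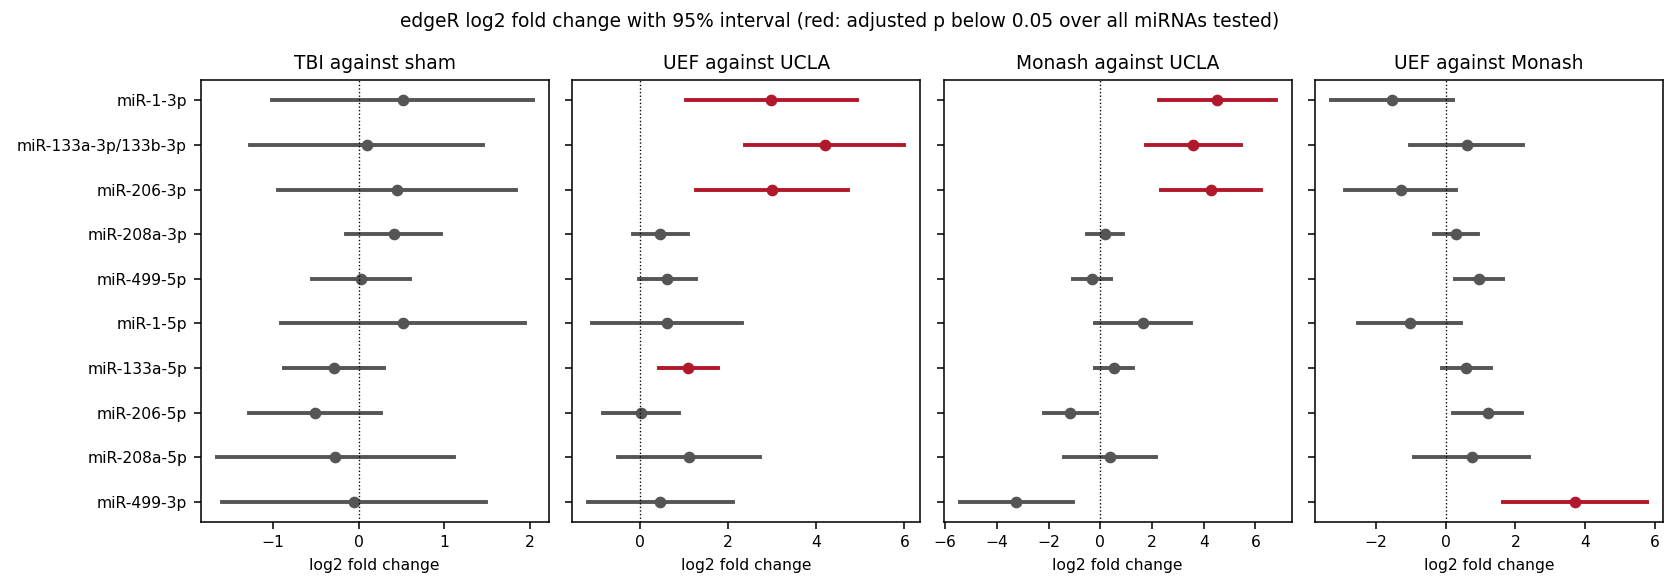
Log2 fold change of each muscle miRNA row from the edgeR fit, with a 95% interval derived from its F test, in 4 comparisons. Red marks an adjusted p below 0.05 over all 751 miRNAs. No row is red for TBI against sham, 4 rows are red for UEF against UCLA, 3 for Monash against UCLA and 1 for UEF against Monash.

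Sham and TBI rats overlapped for each member. TBI against sham called 0 of 10 members by edgeR, with 0 members at an unadjusted p below 0.05 and 0 called by DESeq2, beside 1.2% of all miRNAs called by edgeR and 11.1% at an unadjusted p below 0.05. miR-206-3p had a lowest, median and highest level of 201, 502 and 16030 CPM in sham rats (n = 10) and 136, 439 and 20600 CPM in TBI rats (n = 19). The ranges overlapped over nearly their whole length. The log2 fold change was 0.45 (95% interval −0.94 to 1.84, adjusted p = 0.883), and −0.04 without UEF TBI− rat 2.

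miR-1-3p had 40.6, 216 and 5459 CPM in sham rats and 29.5, 115 and 12480 CPM in TBI rats. The TBI median was lower (ratio 0.535), whereas the fitted log2 fold change was 0.51 (95% interval −1.01 to 2.04, adjusted p = 0.878). Without UEF TBI− rat 2 it was −0.15, without Monash TBI− rat 1 −0.28, and without both −1.25 (adjusted p = 0.305). For miR-133a-3p the values were 121, 559 and 9063 CPM in sham and 102, 472 and 31910 CPM in TBI rats, with a log2 fold change of 0.10 (−1.27 to 1.46, adjusted p = 0.973) that fell to −1.09 without both rats (adjusted p = 0.361). Its direction turned on leaving out any 1 of 8 rats, namely UEF sham rats 1, 2 and 3, Monash sham rat 2, UCLA sham rat 1, UEF TBI− rat 2 (−0.56), Monash TBI− rat 1 and UCLA TBI+ rat 1. No direction can be read for these rows.

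Of the cardiac rows, miR-208a-3p and miR-499-5p were narrower. The scarcer miR-208a-5p (log2 fold change −0.27, 95% interval −1.66 to 1.11) and miR-499-3p (−0.06, −1.60 to 1.49) were not. miR-208a-3p had 7.39, 20.2 and 39.9 CPM in sham and 9.11, 27.9 and 84.1 CPM in TBI rats, and 14 of 19 TBI rats were above the sham median. Its log2 fold change was 0.41 (95% interval −0.15 to 0.97, adjusted p = 0.649), the lowest adjusted p among the members in this comparison. miR-499-5p had 2.31, 13.4 and 31.2 CPM in sham and 2.62, 12.1 and 44.2 CPM in TBI rats, with a log2 fold change of 0.03 (−0.54 to 0.60, adjusted p = 0.9753) whose direction turned on leaving out any 1 of 7 rats, UEF sham rats 2 and 3, UEF TBI− rat 2, UEF TBI+ rat 2, Monash sham rats 1 and 2 and Monash TBI+ rat 1. miR-206-5p had a log2 fold change of −0.51 (−1.28 to 0.27, adjusted p = 0.706), and miR-133a-5p of −0.29 (−0.87 to 0.29, adjusted p = 0.804).

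TBI+ against TBI− called 0 of 10 members by edgeR, with 0 at an unadjusted p below 0.05 and 0 called by DESeq2, beside 0% of all miRNAs called and 2.4% at an unadjusted p below 0.05. The adjusted p was 0.998 for each member. miR-208a-3p had 9.11, 23.0 and 35.0 CPM in TBI+ (n = 9) and 10.0, 32.5 and 84.1 CPM in TBI− rats (n = 10), with a log2 fold change of −0.62 (95% interval −1.26 to 0.02), the member nearest to the unadjusted threshold. miR-1-3p had 86.3, 218 and 1322 CPM in TBI+ and 29.5, 91.2 and 12480 CPM in TBI− rats. The TBI+ median was 2.39 times that of TBI−, whereas the fitted log2 fold change was −0.93 (−2.93 to 1.08). The fit changed to 0.79 without UEF TBI− rat 2 and to 1.96 without both high TBI− rats (adjusted p = 0.999).

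At UCLA, where no rat was extreme, the 3 TBI+ and 3 TBI− rats did not overlap for 6 of 10 members, beside 32.6% of all miRNAs. 3 members were higher in TBI+ (miR-1-3p, miR-1-5p and miR-206-3p) and 3 lower (miR-133a-5p, miR-208a-3p and miR-499-5p). This site was singled out after the values were seen, and the difference was not tested within it. miR-1-3p was 34.03, 33.4 and 29.5 CPM in TBI− and 218, 109 and 91.7 CPM in TBI+ rats. miR-206-3p was 174, 156 and 136 CPM in TBI− and 480, 594 and 289 CPM in TBI+ rats. Of the lower rows, miR-208a-3p was at 27.9, 30.1 and 37.0 CPM in TBI− and 9.11, 11.3 and 19.7 CPM in TBI+ rats. At Monash the TBI− and TBI+ rats overlapped for these 3 rows. At UEF they overlapped for these 3 rows too. For miR-1-3p and miR-206-3p the overlap there came from TBI− rat 2. The other 3 TBI− rats had 81.0 to 96.4 CPM of miR-1-3p and 192 to 394 CPM of miR-206-3p. The UEF TBI+ rats had 146 to 1322 CPM and 439 to 6060 CPM. This was seen after the values were known, and the share of all miRNAs that would part without that rat was not computed. For miR-133a-3p those 3 TBI− rats had 302 to 561 CPM, which overlapped the UEF TBI+ rats (lowest 390 CPM). miR-133a-3p also overlapped at UCLA.

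Whether the injury effect differed between sites was tested as the interaction of injury and site. edgeR called 0 of 10 members, beside 1.07% of all miRNAs, and 1 member had an unadjusted p below 0.05, beside 14% of all miRNAs. That member was miR-1-5p (edgeR, adjusted p = 0.252), which the likelihood ratio test of DESeq2 called (adjusted p = 0.0361). The adjusted p of the other 9 members ranged from 0.470 to 0.947. Within single sites edgeR called 0 members for TBI against sham, beside 3.86% of all miRNAs at UEF, 0% at Monash and 0.266% at UCLA. At an unadjusted p below 0.05 the members numbered 0 at UEF, 1 at Monash (miR-208a-3p) and 1 at UCLA (miR-1-5p), beside 15.8%, 7.46% and 11.3% of all miRNAs, and DESeq2 was not run within sites. The largest of these differences for an abundant or cardiac 3p arm was that of miR-208a-3p at Monash (log2 fold change 1.39, 95% interval 0.28 to 2.50, adjusted p = 0.496), with 7.39 to 20.97 CPM in 3 sham and 10.0 to 84.1 CPM in 5 TBI rats.

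miR-1-5p, the less abundant arm of the miR-1 hairpin, was at 0 counts in all 3 UCLA sham rats, where 3 counts are worth 0.968 to 1.43 CPM. The 6 UCLA TBI rats had 7 to 29 counts, or 2.87 to 10.3 CPM, at least 5.34-fold higher on the mean when each sham rat is set to 3 counts. The 2 groups did not overlap, although edgeR did not call the row at UCLA (adjusted p = 0.186). The share of all miRNAs for which these groups do not overlap was not computed, so whether this is unusual cannot be said. This row was singled out after its values were seen. At UEF the sham rats had 1.72 to 13.2 CPM and the 8 TBI rats 0 to 31.9 CPM, and at Monash the sham rats had 13.3, 10.2 and 25.2 CPM and the 5 TBI rats 0 to 28.8 CPM. Sham and TBI overlapped at both of these sites.

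miR-208a-5p was at 0 counts in all 3 UCLA TBI+ rats and in 5 other rats. The UCLA sham rats had 17, 11 and 14 counts, at least 4.56-fold higher on the mean against 3 counts per TBI+ rat, and the UCLA TBI− rats had 0, 12 and 25 counts. This row too was singled out after its values were seen, and the share of all miRNAs with such a pattern was not computed. It was not called in any of the comparisons above, none of which set UCLA TBI+ rats against UCLA sham rats.

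The abundant muscle rows were among the 4 miRNAs that varied most between rats of the same group. The SD of log2 CPM around the 9 group means (20 degrees of freedom) was 2.00 for miR-1-3p, 1.97 for miR-206-3p and 1.92 for miR-133a-3p, ranks 1, 2 and 4 of 751. Rank 3 was miR-1b (1.97). The median over all miRNAs was 0.541. The same 4 rows also led the 337 miRNAs with a median count of 100 or more, of which the next was miR-3571 (1.54).

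The cardiac 3p arm of miR-208a and the 5p arm of miR-499 lay lower. Their SD was 0.663 for miR-208a-3p (rank 220) and 0.731 for miR-499-5p (rank 150). miR-208a-5p (1.36) and miR-499-3p (1.396) were wider, at medians of 12 and 10 counts.

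**Figure D3:**
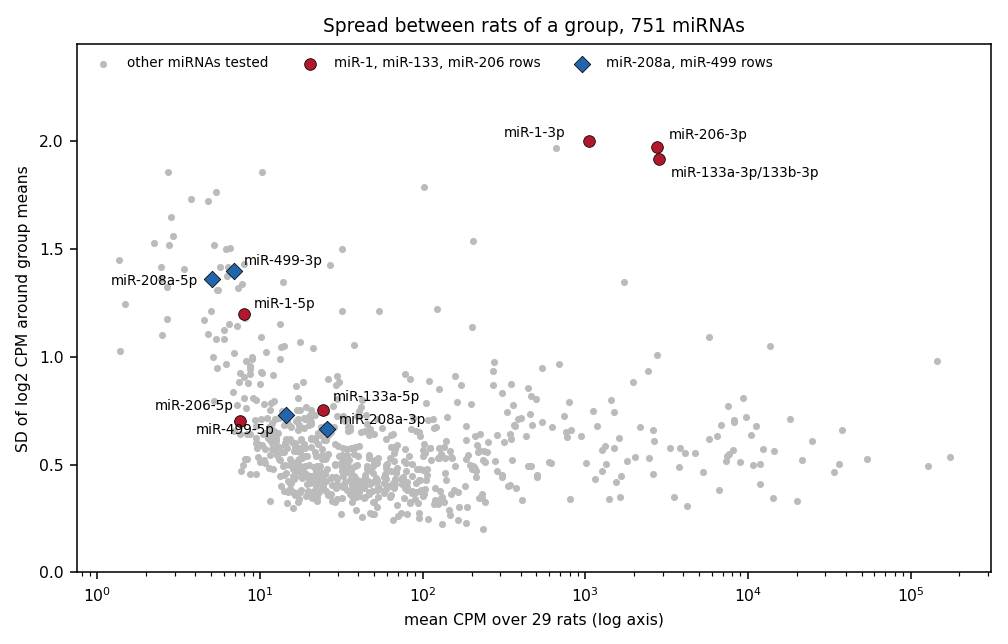
SD of log2 CPM around the group means (vertical axis) against the mean CPM over 29 rats (log axis) for 751 miRNAs. Each point is 1 miRNA. The abundant rows of miR-1, miR-206 and miR-133 stand at the top right between 1.92 and 2.00, with the unlabelled miR-1b beside them, and miR-208a-3p and miR-499-5p lie among the other miRNAs.

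The spread itself was uneven across sites. For miR-206-3p the SD of log2 CPM was 0.725 in the 9 UCLA rats, 1.98 in the 12 UEF rats and 2.41 in the 8 Monash rats. For miR-133a-3p it was 0.679, 2.14 and 1.81 in that order. The highest rat had 77.7 times the miR-206-3p level of the lowest at UEF, 80.1 times at Monash and 4.38 times at UCLA. The edgeR fit uses 1 dispersion per miRNA for all sites.

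The rats with high levels were high in all 3 abundant rows. UEF TBI− rat 2 had 5875 CPM of miR-1-3p, 31910 CPM of miR-133a-3p and 14920 CPM of miR-206-3p. Monash TBI− rat 1 had 12480, 7903 and 20600 CPM, and Monash sham rat 3 had 5459, 9063 and 16030 CPM. UEF sham rat 4 (1338, 9052 and 3403 CPM) and UEF TBI+ rat 2 (1322, 7102 and 6060 CPM) followed. These 5 rats had 34.6, 10.0, 8.94, 27.5 and 25.7 CPM of miR-208a-3p, none above the highest level in the other rats.

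Across the 29 rats the Spearman correlation of log2 CPM was 0.969 between miR-1-3p and miR-206-3p, 0.880 between miR-1-3p and miR-133a-3p, and 0.875 between miR-133a-3p and miR-206-3p. Around the group means, the same pairs gave 0.929, 0.915 and 0.876. These are descriptions over rats that share libraries, scaling and depth. The sequences of miR-1-3p and miR-206-3p are nearly alike, and how the counting split reads between them was not tested.

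Over all rats the abundant rows did not move with the cardiac rows to that degree. miR-206-3p correlated with miR-208a-3p at −0.142 over all rats and 0.106 around the group means, and with miR-499-5p at 0.145 and 0.432. By site, with the group means left in, miR-206-3p and miR-208a-3p correlated at −0.933 in UCLA rats, −0.119 in Monash rats and −0.112 in UEF rats. With miR-208a-3p, miR-1-3p gave −0.933 in UCLA rats as well. Likewise miR-206-3p and miR-499-5p correlated at −0.867 in UCLA rats, 0.190 in Monash rats and 0.678 in UEF rats, so that no single value describes either pair. At UEF the 3 rats with the most miR-499-5p (UEF TBI− rat 2, UEF sham rat 4 and UEF TBI+ rat 2, with 44.2, 31.2 and 23.5 CPM) were also the 3 with the most miR-206-3p. miR-208a-3p correlated with miR-499-5p at 0.354 and with its own other arm, miR-208a-5p, at 0.568.

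**Figure D4:**
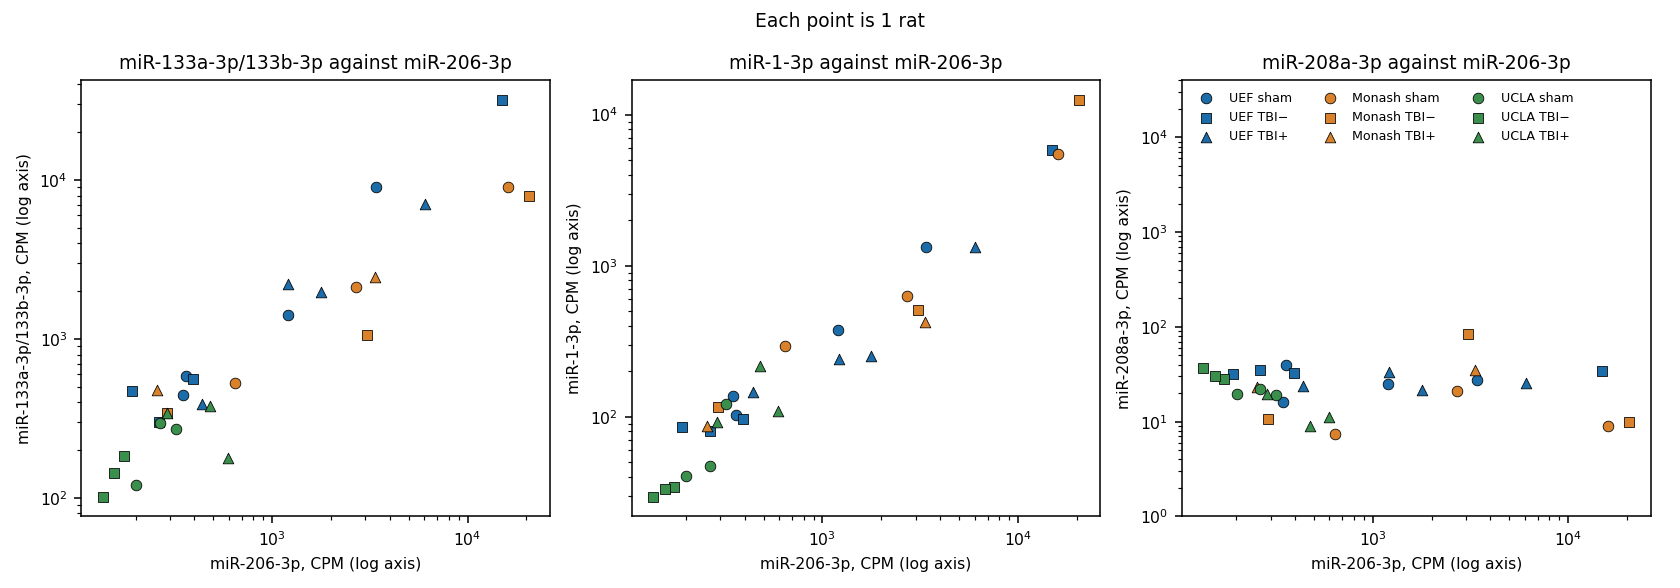
Levels of miR-133a-3p, miR-1-3p and miR-208a-3p (CPM, log axes) against that of miR-206-3p in 29 rats, colored by site and shaped by condition. The first pair of panels rise with miR-206-3p over its range from 136 to 20600 CPM, whereas miR-208a-3p stays between 7.39 and 84.1 CPM and falls with miR-206-3p among the UCLA points (Spearman correlation −0.933).

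Arms of 1 hairpin did not always move together. miR-133a-5p, the less abundant arm of miR-133a, correlated with the miR-133a-3p row at 0.649 over all rats and 0.806 around the group means. That row also counts miR-133b-3p, from a separate locus, so this pair does not compare arms of 1 hairpin alone. With the group means left in, the value was −0.267 in UCLA rats, 0.857 in Monash rats and 0.671 in UEF rats. At UCLA miR-133a-5p also correlated at −0.550 with miR-1-3p and −0.633 with miR-206-3p. Its highest levels were those of UEF TBI− rat 2 (91.8 CPM) and UEF sham rat 4 (81.8 CPM). miR-206-5p correlated with miR-206-3p at −0.206 and −0.0158. The ratio of miR-206-3p to miR-206-5p counts ran from 10.8 to 23590 (28 rats, 1 without a miR-206-5p count). In Monash TBI− rat 1, miR-206-3p had 47180 counts and miR-206-5p had 2 counts. miR-1-5p correlated with miR-1-3p at 0.463, and miR-499-3p with miR-499-5p at 0.320.

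**Figure D5:**
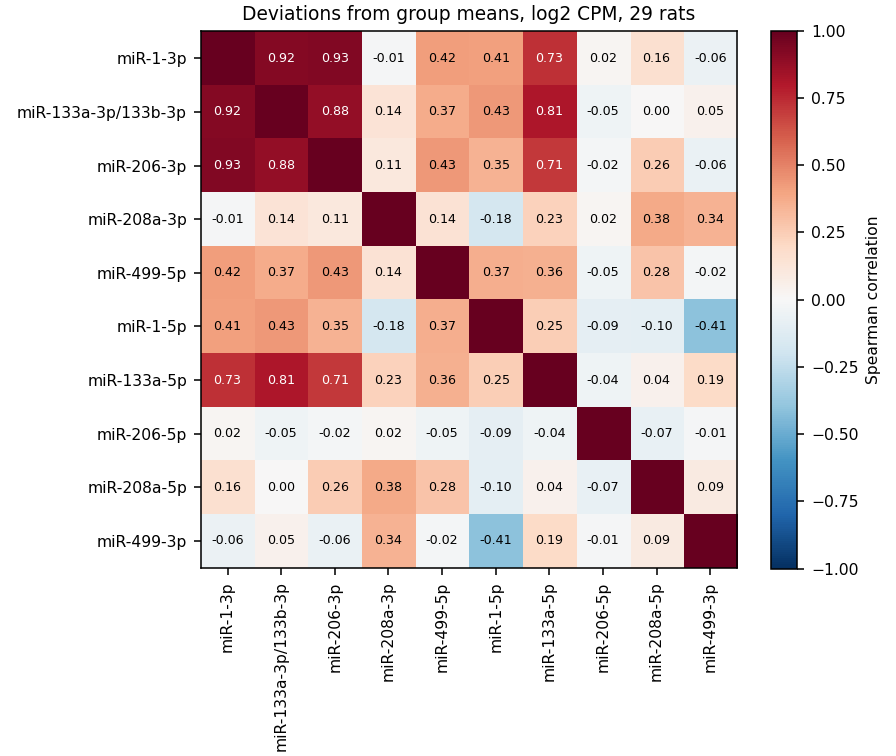
Spearman correlation between the 10 muscle miRNA rows over 29 rats, on log2 CPM after the mean of each site and condition group was subtracted. miR-1-3p, miR-133a-3p and miR-206-3p form a block from 0.876 to 0.929, joined by miR-133a-5p at 0.707 to 0.806, and miR-208a-3p stays at or below 0.136 with those 3 rows. The plot pools the sites. With the group means left in, so that differences between conditions enter, miR-133a-5p and miR-208a-3p correlated negatively with each of those 3 rows in UCLA rats (−0.267 to −0.633 and −0.533 to −0.933). Values around the group means were not computed within a site.

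The balance within the abundant set also varied by site. The ratio of miR-133a-3p to miR-206-3p counts had a median of 1.35 at UEF (0.890 to 2.66), 0.758 at Monash (0.347 to 1.85) and 0.845 at UCLA (0.300 to 1.18). The ranges of the 3 sites overlapped. The ratio of miR-1-3p to miR-206-3p was similar across sites, with medians of 0.310, 0.338 and 0.215, and never passed 0.606. Ratios within a rat do not depend on the scaling of libraries. The ratio of miR-206-3p to miR-208a-3p had a median of 12.2 at UCLA, 28.9 at UEF and 91.4 at Monash, and ran from 3.66 to 2051 over all rats.

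By the rule of the highest Spearman correlation over 29 rats among miRNAs outside the set, the neighbours of miR-1-3p were miR-1b (0.978), miR-133c (0.832) and miR-3557-5p (0.703), and those of miR-206-3p were miR-1b (0.963), miR-133c (0.818) and miR-3571 (0.721). For miR-133a-3p they were miR-133c (0.958), miR-1b (0.867) and miR-3557-5p (0.711). miR-133c is annotated on the strand opposite miR-133a, and its reverse complement lies within the miR-133a-3p sequence. Its counts were 0.0271 to 0.123 of those of miR-133a-3p.

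Neighbours of the scarce rows were other miRNAs, apart from miR-133c and miR-3571, which were also near miR-133a-5p. They were miR-3084c-3p (0.732), miR-592 (0.726) and miR-494-5p (0.720) for miR-208a-3p, and miR-679 (0.636), miR-466c-5p (0.620) and miR-452-3p (0.612) for miR-499-5p. For miR-1-5p they were miR-144-3p (0.819), miR-32-5p (0.706) and miR-340-5p (0.700), for miR-133a-5p miR-504 (0.694), miR-133c (0.654) and miR-3571 (0.620), and for miR-206-5p miR-3569 (0.780), miR-363-5p (0.734) and miR-711 (0.671). miR-208a-5p was nearest to miR-3585-3p (0.604), miR-3064-3p (0.581) and miR-297 (0.580), and miR-499-3p to miR-146b-3p (0.778), miR-190b-3p (0.767) and miR-764-3p (0.749).

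Other muscle-linked miRNAs followed in part. Of 12 such rows (among them miR-133c, miR-208b, miR-378, miR-486 and miR-490), 5 were higher at UEF than at UCLA, beside 5.19% of all miRNAs. They were miR-133c (log2 fold change 3.74 ± 0.80 (SE)), miR-378b (1.39 ± 0.25), miR-490-3p (1.38 ± 0.32), miR-378a-3p (1.26 ± 0.33) and miR-378a-5p (0.97 ± 0.26). miR-133c alone was called between Monash and UCLA (3.29 ± 0.83), and 0 of 12 were called between UEF and Monash, for TBI against sham, for TBI+ against TBI− or for the injury effect by site. At UEF taken alone, miR-486 was higher and miR-378a-5p lower in TBI than in sham rats, beside 3.86% of all miRNAs called there. miR-486 is also on the red cell list below. The cardiac and slow-fibre relative miR-208b-3p had 59.3 CPM at the median (19.9 to 108).

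Some rows of other tissue lists were called between sites as well. Over all miRNAs, 9.32% were called between UEF and UCLA, 5.46% between Monash and UCLA and 9.99% between UEF and Monash, in either direction. A single row called in a list is not read as a signal of its tissue. Of 6 smooth muscle and vessel rows, 4 (miR-143-3p, miR-143-5p, miR-145-3p and miR-145-5p) were higher at both UEF and Monash than at UCLA, with a summed level of 6793 to 30640 CPM at UCLA, 16780 to 49420 CPM at Monash and 12170 to 126700 CPM at UEF. Of 5 liver rows, 5 were higher at UEF than at UCLA, 2 were higher at UEF than at Monash and 1 was higher at Monash than at UCLA. Their summed level was 30750 to 1739000 CPM, 23640 to 143400 CPM and 10000 to 26790 CPM in the order UEF, Monash, UCLA, with medians of 146200, 82830 and 20970 CPM. The UEF maximum, which exceeds the library total through its scaling factor, and the smooth muscle maximum of 126700 CPM were both those of UEF sham rat 3, and the next highest UEF rat had 477600 CPM and 49690 CPM. No red cell row of 6 was called between sites, and 3 of 6 white cell and platelet rows were lower at UEF than at Monash and 1 lower at UEF than at UCLA. Of 11 brain rows, 2 were higher and 1 lower at UEF than at Monash, 1 was higher and 2 were lower at UEF than at UCLA, and 1 was lower at Monash than at UCLA. In TBI rats, 3 liver rows were lower and 4 brain rows higher than in sham, beside 1.2% of all miRNAs called. No row of the smooth muscle, red cell or white cell lists was called with all sites together. At UEF taken alone, miR-486 was the 1 red cell row called, as higher in TBI, beside 3.86% of all miRNAs called there. The part of these tissues in the site differences of the muscle miRNAs was not tested.

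Hemolysis, read as the log2 ratio of miR-451 to miR-23a-3p, ranged from −3.57 to −0.873, and correlated at −0.215 with miR-206-3p, −0.240 with miR-1-3p and −0.151 with miR-133a-3p. UEF TBI− rat 2, with the highest miR-133a-3p level, also had the highest ratio (−0.873), and Monash TBI− rat 1 had −2.88. The percentage of miR-122-5p correlated with miR-133a-3p at 0.476, and total counts with no abundant muscle row above 0.0502. With the hemolysis ratio in the model, the same number of members was called in each comparison. The part of hemolysis in the high levels was not tested further.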

How the data were processed

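Small RNA of plasma was sequenced in 29 rats (QIASeq miRNA libraries on a NextSeq instrument). The authors deposited raw counts per miRNA as whole numbers, made in the Qiagen portal with cutadapt trimming, a minimum insert of 16 bases and a minimum molecular identifier of 10 bases, bowtie and miRBase v. 21 on Rnor_6.0; whether identifiers were merged is not given in the sources used here. All columns were used, and groups came from the sample labels.

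Rows were kept by filterByExpr (minimum count 10), scaled by TMM and fitted in edgeR 4.0.16 (R 4.3.3, limma 3.58.1) with condition and site, all rats sharing 1 estimate of the spread; the TBI effect is the mean of TBI− and TBI+ minus sham, and injury by site was tested in a model of group means. Quasi-likelihood F tests were two-sided, adjusted by Benjamini-Hochberg over all tested rows, at a threshold of 0.05. Log2 CPM used a prior count of 2. A count of 0 was bounded by 3 counts per rat, which covers counting error only. DESeq2 1.42.0, other scalings, filters, thinning, covariates and left-out rats or sites were alternatives. Scripts were tested on simulated data. Tables and plots used Python 3.11.15, pandas 2.3.3, numpy 2.4.6, scipy 1.17.1 and matplotlib 3.10.9.

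The rule fixed for naming listed 7 members, while its stems found 10 rows, all reported, each with its 3 most alike miRNAs by Spearman correlation of log2 CPM. Members and lists were chosen with earlier results of these data known. The lowest chi-square per degree of freedom between rats of 1 group was 75.3 over 34 pairs, so no pair of libraries agreed within sampling noise. Each rat is 1 library, and p-values set a difference against the spread between rats.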

Additional observations from a re-analysis of the deposited data

Results flagged for a closer look

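Each muscle miRNA row was examined in each group of 4 to 10 rats, which gave 110 sets. Of these, 9 held a rat far from the others, where chance at 1 in 20 gives 5.5. The groups share rats and the rows correlate, so the sets are not independent and 9 cannot be weighed against 5.5. UEF TBI− rat 2 accounted for 5 of the 9. Among the UEF TBI− rats it had 5875 CPM of miR-1-3p (next rat 96.4 CPM), 31910 CPM of miR-133a-3p (next 561 CPM) and 14920 CPM of miR-206-3p (next 394 CPM). Its 91.8 CPM of miR-133a-5p stood apart both among the UEF TBI rats (next 33.5 CPM) and among all TBI− rats (next 28.4 CPM).

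UEF sham rat 4 had 81.8 CPM of miR-133a-5p among the sham rats (next 35.0 CPM). Monash TBI+ rat 1 had 0 CPM of miR-1-5p among the Monash rats (next 6.47 CPM) and 6.15 CPM of miR-499-3p among the Monash TBI rats, of which the other 4 were at 0. Monash TBI− rat 1 had 2.62 CPM of miR-499-5p among the Monash TBI rats (next 10.1 CPM), while it had the highest miR-206-3p level of all rats.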

How the results depend on the processing

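Of 1556 values of single muscle miRNAs under alternatives, 1451 kept their side of the threshold and any direction they had, 44 lost a call, 14 gained one and 47 turned direction. The values for injury by site are adjusted p-values, which have no direction to turn. For the other comparisons the tally holds only a chosen part of the members, which for TBI+ against TBI− is miR-1-3p and miR-208a-3p. The cause of each change was not tested. 0 muscle miRNAs were called for TBI against sham and TBI+ against TBI− under all alternatives run. Leaving out 1 rat at a time gave 1 to 16 calls over all miRNAs for TBI against sham (9 as reported), 39 to 117 for UEF against Monash (75), 60 to 77 for UEF against UCLA (70), 25 to 59 for Monash against UCLA (41) and 0 to 10 for injury by site (8). Among muscle miRNAs it gave 0 to 3, 2 to 4 and 1 to 4 calls for the 3 site comparisons in that order (1, 4 and 3 as reported). Log2 fold changes that turned ran from −0.28 to 1.05 (miR-1-3p), −0.56 to 0.56 (miR-133a-3p), −0.04 to 0.98 (miR-206-3p) and −0.069 to 0.19 (miR-499-5p) for TBI against sham, −1.41 to 0.79 (miR-1-3p) for TBI+ against TBI−, −0.85 to 1.18 (miR-133a-3p) for UEF against Monash and −0.33 to 0.34 (miR-208a-3p) for Monash against UCLA.

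Over all miRNAs, TBI against sham gave 25 calls in DESeq2, 17 with at least 10 counts in every rat, 4 with the hemolysis ratio, 15 in a one-factor model, 0 without UEF, 21 without Monash, 14 without UCLA and 5 without both high TBI− rats (UEF rat 2, Monash rat 1). UEF against Monash gave 18 with miR-28-3p as library size, 30 with totals lacking the 3 largest miRNAs, 35 in sham and 0 in TBI rats alone. UEF against UCLA gave 36 in sham and 40 in TBI rats, and Monash against UCLA 21 and 23. Injury by site gave 17 in DESeq2 (1 muscle miRNA, miR-1-5p), 2 with DESeq2 size factors, 3 with at least 10 counts in every rat, 0 with the hemolysis ratio and 2 without both rats. Muscle calls for UEF against Monash were 3 in DESeq2 and 0 with miR-28-3p, at least 10 counts in every rat, sham alone or TBI alone. For UEF against UCLA they were 1 in sham rats, not among the 4 rows called on all rats, and 1 in TBI rats (miR-133a-3p). For Monash against UCLA they were 0 in TBI rats. DESeq2 also called miR-499-3p for Monash against UCLA (−3.62, adjusted p = 0.0202).

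For TBI against sham, miR-1-3p turned to −0.012 (3 largest left out), −0.12 (one-factor) and −1.25 (both rats out), miR-133a-3p to −0.31 (miR-28-3p), −0.42 (3 largest), −0.0029 (at least 10 counts), −0.55 (hemolysis), −0.36 (without UEF) and −1.09 (both rats), miR-206-3p to −0.0056 (3 largest), −0.0024 (one-factor) and −0.67 (both rats), and miR-499-5p to −0.036 (miR-28-3p), −0.11 (3 largest), −0.086 (without Monash) and −0.037 (both rats). For TBI+ against TBI−, miR-1-3p turned to 1.96 (both rats). UEF against Monash turned to −0.45 (sham) and −0.086 (both rats) for miR-133a-3p and −0.076 (TBI) for miR-208a-3p, and Monash against UCLA to −0.68 (sham) for miR-208a-3p. The median of all miRNAs moved by over 0.1 with miR-28-3p (TBI+ against TBI−, 0.14), with the 3 largest left out (UEF against Monash 0.16, against UCLA 0.14) and in sham rats (UEF against Monash, 0.10). Rows with under 10 counts in a rat had no value under the stricter filter.

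The rats' numbers did not pair them: over 28 same-number pairs the correlation of deviations was −0.422 to 0.396 (median −0.013), and 8 of 29 rats deviated most like a rat of their own number. With the replicate block, calls were 5 for TBI against sham, 16 for UEF against Monash (0 muscle), 40 for UEF against UCLA (1 muscle), 24 for Monash against UCLA (2 muscle, miR-1-3p lost at an adjusted p of 0.0521) and 0 for injury by site. Under the replicate block, miR-1-3p turned to −0.30 and miR-133a-3p to −0.24 (TBI against sham), miR-1-3p to 0.18 (TBI+ against TBI−), miR-133a-3p to −0.093 (UEF against Monash) and miR-208a-3p to −0.0029 (Monash against UCLA).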
